A study of Mus musculus with 9 samples.

Results

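A set of 10 genes of transforming growth factor beta (TGF-beta) signalling were followed in activated hepatic stellate cells (aHSCs), the scar-forming cells of injured liver, and were chosen by name. They were the ligands Tgfb1, Tgfb2 and Tgfb3, the receptors Tgfbr1, Tgfbr2 and Tgfbr3, the latent TGF-beta binding protein Ltbp1, the TGF-beta-induced matrix protein Tgfbi, and the inhibitors Bambi and Smad7. The bead arrays carried 30869 gene symbols on 45281 probes, and these 10 genes had 24 probes. Of those, 13 probes of 8 genes were detected on at least 3 arrays and could be tested. Both inhibitors had a single probe that was detected on no array.

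All 9 samples came from male C57/Bl6 mice of genotype WT1GFP/+, which carry a green fluorescent protein (GFP) reporter on one copy of the Wilms tumour 1 (WT1) locus, so every group shared the reporter allele. WT1-high cells (3 arrays, GFP high) and WT1-intermediate cells (3 arrays, GFP low) were sorted straight from fibrotic livers after chronic carbon tetrachloride injection. WT1-negative cells (3 arrays, GFP negative) were sorted after 7 days of activation in culture, so that WT1 status and origin, liver or culture dish, cannot be told apart in any comparison with that group. The study states 3 animals for the liver samples and counts independent cell isolations as replicates in its culture work. The labels do not say whether the cultured samples came from separate animals, so p-values measure the spread between these samples. In RNA from sorted pools, fewer cells of a type and less RNA per cell cannot be told apart.

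TGF-beta is secreted as a latent complex in which the mature dimer stays bound to its propeptide and, in many cells, to a latent TGF-beta binding protein that tethers it to matrix. After release, for example by integrins or thrombospondin, the ligand joins the type II receptor (Tgfbr2) to the type I receptor (Tgfbr1), which phosphorylates Smad2 and Smad3. Betaglycan (Tgfbr3) presents ligand, above all TGF-beta 2, to the type II receptor. In liver fibrosis this pathway is known as a driver of collagen production by stellate cells.

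Mean signal per array lay between 147 and 289, and 17253 to 19774 probes per array were detected. Of 12 stellate cell markers 8 could be tested, and their summed level was 4873 to 6444 on WT1-high arrays, 4261 to 6089 on WT1-intermediate arrays and 1656 to 2247 on WT1-negative arrays. Like Tgfb2, Tgfbr3 and Ltbp1 below, it was higher in both liver groups, and its part in those differences was not tested. By the limma test described below, 4 of the 8 were higher and 2 lower in WT1-high cells than in the WT1-negative group. In WT1-intermediate cells 4 were higher and 1 lower, and 59.8% and 57.9% of all genes passed in these comparisons. Hand2 and Colec11 were detected on no WT1-negative array. Gfap, Lhx2 and Rgs5 were detected on no array, and Lrat, the retinol-esterifying enzyme of stellate cells, was detected on no WT1-intermediate or WT1-negative array. Markers of other cells were present in group-dependent amounts. The summed linear level of the 17 macrophage genes tested (of 18 listed) was 4686 to 7642 on WT1-high arrays, 15707 to 25110 on WT1-intermediate arrays and 50097 to 56914 on WT1-negative arrays. For 10 of 10 mesothelial genes it was 34186 to 38178, 20011 to 27252 and 382 to 480, respectively, and for 7 of 8 skeletal muscle genes 137 to 143, 135 to 145 and 6222 to 9347. The 7 T and NK cell genes tested of 9 summed to 710 to 1147, 686 to 1247 and 142 to 145, with Cd3e, Cd3d, Cd2 and Nkg7 detected on no WT1-negative array.

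The probes that carry the results are shown here by their first 30 of 50 bases, since 4 of the genes were read by pairs of probes that gave different answers.
Tgfb1 (ILMN_2711461): tacaaccaacacaacccgggcgcttcggcg
Tgfb2 (ILMN_1225196): aggcttagctagggtttaagaatctcaact
Tgfb3 (ILMN_2748966): gccgcatttccccttggatatttggctaga
Ltbp1, brighter, transcript variant 2 record (ILMN_1221564): cccaagactatgggtgtccttagatgacag
Ltbp1, dimmer, transcript variant 1 record (ILMN_2765452): cctcaccttgagcagctcgcgcccctcccc
Tgfbr1, brighter (ILMN_2602711): gcagtcctttaaccctgttggtgtgattgc
Tgfbr1, dimmer (ILMN_2980532): gttttgagaaacctgtgaagagagaagcat
Tgfbr2, brighter (ILMN_2760979): ggtccactagtgggatttctagggttcaaa
Tgfbr2, dimmer (ILMN_1242086): ggagtcgttcaagcagacggatgtctactc
Tgfbr3, brighter (ILMN_2789239): atccatttcctgcgtgtgttctccgcaggc
Tgfbr3, dimmer (ILMN_2606601): gagacgaccacttcctcctttaaaatgtcc
Tgfbi, brighter (ILMN_2834379): ggaaagccttggcatggttctgtaaagctc
Tgfbi, dimmer (ILMN_2727663): ggagatgagctggcagactctgcccttgaa
No other probe of the array repeated the whole sequence of a member probe, and no tested pair of the same gene shared a run of more than 6 bases. The Ltbp1 pair was designed on different transcript records of the gene, whereas the Tgfbr1 pair shared 1 record.

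The ligands moved in opposite directions between liver and culture. Tgfb1 was lower in both WT1-positive groups than in WT1-negative cells, whereas Tgfb2 and Tgfb3 were higher. Values are normalized log2 intensities, on which 1 unit is a doubling, and a call is an adjusted p under 0.05 by limma's moderated test with Benjamini-Hochberg adjustment over all 20573 probes tested. Levels of different genes are not comparable on arrays, so each gene is compared only with itself.

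Tgfb1, the isoform classically linked to fibrosis, read 6.91, 7.00 and 6.78 in WT1-high replicates 1, 8 and 29. It read 7.99, 7.75 and 7.28 in WT1-intermediate replicates 1, 8 and 30, and 8.52, 9.23 and 8.50 in WT1-negative replicates 3, 11 and 14. The 3 groups did not overlap, and their order was WT1-high, WT1-intermediate, WT1-negative from low to high. Tgfb1 was 3.62-fold lower in WT1-high cells than in the WT1-negative group (log2 difference -1.86 ± 0.23 SE, limma adjusted p = 3.97e-05). It was 2.11-fold lower in WT1-intermediate cells than in the WT1-negative group (-1.08 ± 0.23 SE, limma adjusted p = 0.00202). Between the WT1-high group and the WT1-intermediate group the difference of -0.78 (95% confidence interval -1.28 to -0.27) did not pass, with a limma adjusted p of 0.0985. The study does list Tgfb1 as differentially expressed between these groups, higher in WT1-intermediate cells, so the call differs from the study's and the direction does not. The liver arrays are paired by animal, and with the animal as a block (29 and 30 as 1 animal) the same difference had an SE of 0.17 and passed, with a limma adjusted p of 0.0217. WT1-high read lower than WT1-intermediate in 3 of 3 animals, by -1.08, -0.75 and -0.50. Under median scaling, which moved the median difference of all genes by 0.44, the Tgfb1 difference was -0.11 (limma adjusted p = 0.851).

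The summed level of the macrophage genes had the same order of groups as Tgfb1. Cd68, a lysosomal macrophage protein, averaged 7.80 on WT1-high, 9.92 on WT1-intermediate and 12.67 on WT1-negative arrays, and C1qa, a complement subunit made by macrophages, averaged 6.34, 9.18 and 11.77. All 17 macrophage genes had a negative difference between the WT1-high and the WT1-intermediate cells and an unadjusted p under 0.05. Of these, 11 were called lower, beside 2.88% of all genes called lower. Of the same 17 genes, 12 were lower and 2 higher in WT1-high cells than in the WT1-negative group, beside 59.8% of all genes called. In WT1-intermediate against WT1-negative cells 7 were lower and 4 higher, beside 57.9% of all genes called. Marco (means 9.15 and 6.78) and Ptprc (6.62 and 4.35) were among the higher. Emr1 (9.96 and 9.61) and Csf1r (9.39 and 9.09) were not called, so not all of these genes had the Tgfb1 order. Clec4f, a Kupffer cell receptor, was detected on no WT1-negative array, and Cd5l on no array of any group. The summed level of the platelet genes, 3 tested of 6, had the same order of groups (124 to 208, 433 to 1649 and 1333 to 2651). Of the 3, only Cxcl4, a platelet chemokine, was called in that order in all 3 comparisons, at means of 6.06, 9.57 and 10.84. Itga2b ran the other way at 6.02, 5.31 and 4.45. Ppbp averaged 4.25, 4.27 and 5.24 and was detected on no WT1-high array. Its means in the liver groups were nearly equal, so the order of the liver groups in the sum rests on Cxcl4. Gp1bb and Gp6 were detected on no array. The parts of macrophage and platelet RNA in the Tgfb1 differences were not tested.

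Tgfb2, the isoform that depends most on betaglycan for receptor binding, read 8.27, 8.76 and 7.87 on WT1-high, 7.64, 8.12 and 8.39 on WT1-intermediate, and 5.78, 5.47 and 5.98 on WT1-negative arrays. All 6 liver arrays lay above all 3 cultured arrays, and the liver groups overlapped each other. Tgfb2 was 5.89-fold higher in WT1-high (2.56 ± 0.25 SE, limma adjusted p = 6.8e-06) and 4.95-fold higher in WT1-intermediate (2.31 ± 0.25 SE, limma adjusted p = 1.82e-05) than in WT1-negative cells. WT1-high and WT1-intermediate differed by 0.25 (95% confidence interval -0.31 to 0.80, limma adjusted p = 0.67), higher in WT1-high in 2 of 3 animals.

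Tgfb3 read 9.30, 9.19 and 8.51 on WT1-high, 8.10, 9.53 and 8.12 on WT1-intermediate, and 8.02, 7.22 and 7.28 on WT1-negative arrays. The WT1-intermediate arrays spread most, with replicate 8 above every other array of the series and the other two just above the highest cultured array. Tgfb3 was 2.82-fold higher in WT1-high cells than in the WT1-negative group (1.50 ± 0.37 SE, limma adjusted p = 0.00511). In WT1-intermediate cells it was 2.12-fold higher (1.08 ± 0.37 SE, limma adjusted p = 0.028), a call that was lost in 7 of 19 alternatives. It was lost without WT1-intermediate replicate 8 (0.61, limma adjusted p = 0.099), without WT1-negative replicate 11 (adjusted p = 0.0883) and without WT1-negative replicate 14 (adjusted p = 0.0832), and under median scaling (0.36, limma adjusted p = 0.582). It was also lost with no background correction (limma adjusted p = 0.059), an offset of 50 (0.0503) and no filter (0.111). Between the liver groups the difference was 0.42 (95% confidence interval -0.41 to 1.24, limma adjusted p = 0.625).

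**Figure D1:**
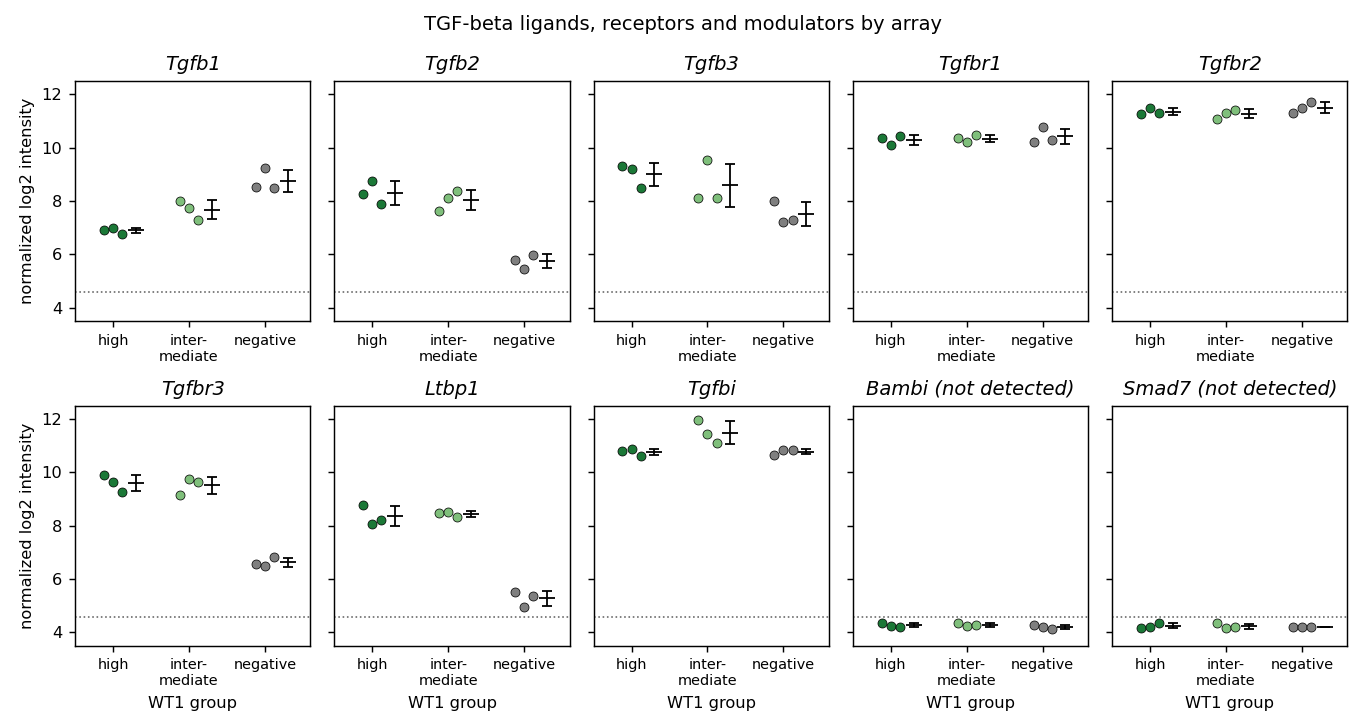
Normalized log2 intensity of each gene's brightest tested probe (1 point per array, 3 arrays per WT1 group, bar and whiskers mean ± SD; dotted line the mean background limit of the arrays). Tgfb1 is highest in WT1-negative cells, Tgfb2, Tgfb3, Tgfbr3 and Ltbp1 are lowest there, Tgfbr1 and Tgfbr2 are level, and Bambi and Smad7 stay under the limit on all arrays.

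Ltbp1, which binds the latent complex covalently and anchors it to fibrillin-rich matrix, was higher in both liver groups than in culture on its brighter probe. That probe read 8.78, 8.08 and 8.22 on WT1-high, 8.48, 8.53 and 8.32 on WT1-intermediate, and 5.51, 4.95 and 5.36 on WT1-negative arrays. The liver arrays overlapped each other and stood more than 2 units above the cultured arrays. Ltbp1 was 8.51-fold higher in WT1-high (3.09 ± 0.21 SE, limma adjusted p = 3.72e-07) and 9.00-fold higher in WT1-intermediate cells (3.17 ± 0.21 SE, limma adjusted p = 4.01e-07) than in WT1-negative cells. The liver groups differed by -0.08 (95% confidence interval -0.54 to 0.38). The dimmer probe lay between 4.26 and 5.09 on all arrays, was detected on 2 of 3 arrays in each group, and was called in no comparison. With the mean of both probes the differences from WT1-negative cells were 1.45 and 1.47, still called (limma adjusted p = 9.86e-06 and 1.1e-05). Of the 7 Ltbp1 probes, the other 5 were detected on at most 1 array, among them a second probe of the variant 2 record (ILMN_2694475), so the probes do not separate the variants.

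Tgfbr1, the type I receptor kinase, gave a different answer with each probe. The brighter probe read 10.36, 10.09 and 10.45 on WT1-high, 10.36, 10.21 and 10.46 on WT1-intermediate, and 10.22, 10.76 and 10.30 on WT1-negative arrays. All 3 groups overlapped. Against WT1-negative cells the differences were -0.13 (95% confidence interval -0.52 to 0.26, WT1-high) and -0.08 (-0.48 to 0.31, WT1-intermediate), and between the liver groups the difference was -0.04 (-0.43 to 0.35). The dimmer probe read 7.11, 6.79 and 7.36 in WT1-high and 7.49, 6.93 and 7.40 in WT1-intermediate cells, but 4.95, 4.27 and 4.61 in WT1-negative cells, where 1 of 3 arrays detected it. On that probe Tgfbr1 was 5.58-fold higher in WT1-high (2.48 ± 0.22 SE, limma adjusted p = 3.42e-06) and 6.34-fold higher in WT1-intermediate (2.66 ± 0.22 SE, limma adjusted p = 2.44e-06) than in WT1-negative cells. Averaging the probes gave 1.18 and 1.29, both called (limma adjusted p = 9.8e-05 and 5.95e-05). Which transcripts each probe reads was not tested, and no direction for Tgfbr1 against WT1-negative cells is given here.

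Tgfbr2, the ligand-binding type II receptor, had the same kind of split in the other direction. Its brighter probe read 11.26, 11.50 and 11.30 on WT1-high, 11.09, 11.32 and 11.40 on WT1-intermediate, and 11.30, 11.51 and 11.69 on WT1-negative arrays. The groups overlapped, and the differences from WT1-negative cells were -0.15 (95% confidence interval -0.50 to 0.20) and -0.23 (-0.58 to 0.12). The dimmer probe read 4.76, 5.03 and 5.19 on WT1-high, 4.88, 4.96 and 5.27 on WT1-intermediate, and 5.55, 6.46 and 6.26 on WT1-negative arrays. On that probe Tgfbr2 was 2.14-fold lower in WT1-high (-1.10 ± 0.23 SE, limma adjusted p = 0.00177) and 2.08-fold lower in WT1-intermediate cells (-1.06 ± 0.23 SE, limma adjusted p = 0.00238). Averaging the probes gave -0.62 and -0.64, both called (limma adjusted p = 0.0116 and 0.0102). The 2 untested Tgfbr2 probes were detected on 2 and 1 of the 9 arrays.

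Tgfbr3 (betaglycan) was higher in both liver groups than in culture, as its ligand Tgfb2 was. The brighter probe read 9.89, 9.66 and 9.27 on WT1-high, 9.15, 9.74 and 9.65 on WT1-intermediate, and 6.57, 6.48 and 6.82 on WT1-negative arrays. Every liver array lay above every cultured array by more than 2 units, and the liver groups overlapped. Tgfbr3 was 7.88-fold higher in WT1-high (2.98 ± 0.21 SE, limma adjusted p = 4.76e-07) and 7.41-fold higher in WT1-intermediate (2.89 ± 0.21 SE, limma adjusted p = 7.8e-07) than in WT1-negative cells. The dimmer probe, detected on 3, 2 and 1 arrays of the groups, was 1.77-fold higher in WT1-high cells than in the WT1-negative group (0.82 ± 0.22 SE, limma adjusted p = 0.00725) and differed by 0.31 (95% confidence interval -0.17 to 0.80) in WT1-intermediate cells.

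**Figure D2:**
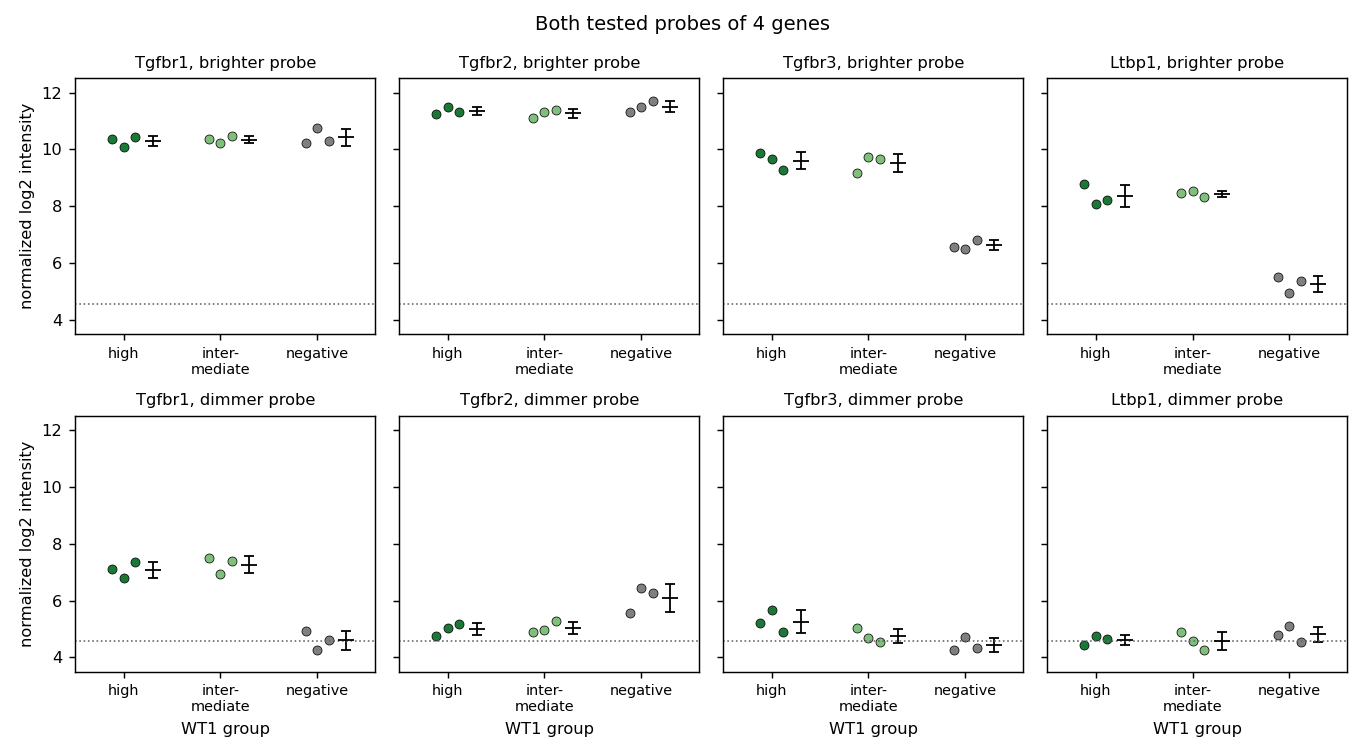
Normalized log2 intensity on each array (points, 3 arrays per WT1 group; bar and whiskers mean ± SD; dotted line the mean background limit) for the brighter probe, top, and the dimmer tested probe, bottom, of Tgfbr1, Tgfbr2, Tgfbr3 and Ltbp1. The Tgfbr1 probes differ in pattern, with overlapping groups on the brighter one and means of 7.09, 7.27 and 4.61 (left to right) on the dimmer one, and of the Ltbp1 probes the brighter one alone separates liver from culture.

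Tgfbi, a secreted matrix protein named for its induction by TGF-beta, was highest in WT1-intermediate cells on both of its probes. The brighter probe read 10.80, 10.87 and 10.62 on WT1-high, 11.95, 11.43 and 11.09 on WT1-intermediate, and 10.66, 10.84 and 10.83 on WT1-negative arrays. All WT1-intermediate arrays lay above all other arrays. Tgfbi was 1.64-fold higher in WT1-intermediate cells than in the WT1-negative group (0.71 ± 0.20 SE, limma adjusted p = 0.0107), a call lost under median scaling (0.11, limma adjusted p = 0.783). WT1-high and WT1-negative cells differed by -0.01 (95% confidence interval -0.46 to 0.43). Between the WT1-high group and the WT1-intermediate group the difference of -0.73 (95% confidence interval -1.17 to -0.28) did not pass, with a limma adjusted p of 0.0804. With the animal as a block it passed (SE 0.18, limma adjusted p = 0.0379), and WT1-high was lower in 3 of 3 animals, by -1.15, -0.56 and -0.47. The dimmer probe gave -0.73 for the same comparison, with adjusted p = 0.107 without the block and 0.052 with it by limma. Macrophage genes were lower in WT1-high cells than in the WT1-intermediate group in the same 3 animals (summed level 6873 against 25110, 7642 against 21371 and 4686 against 15707), and their part in the Tgfbi difference was not tested.

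**Figure D3:**
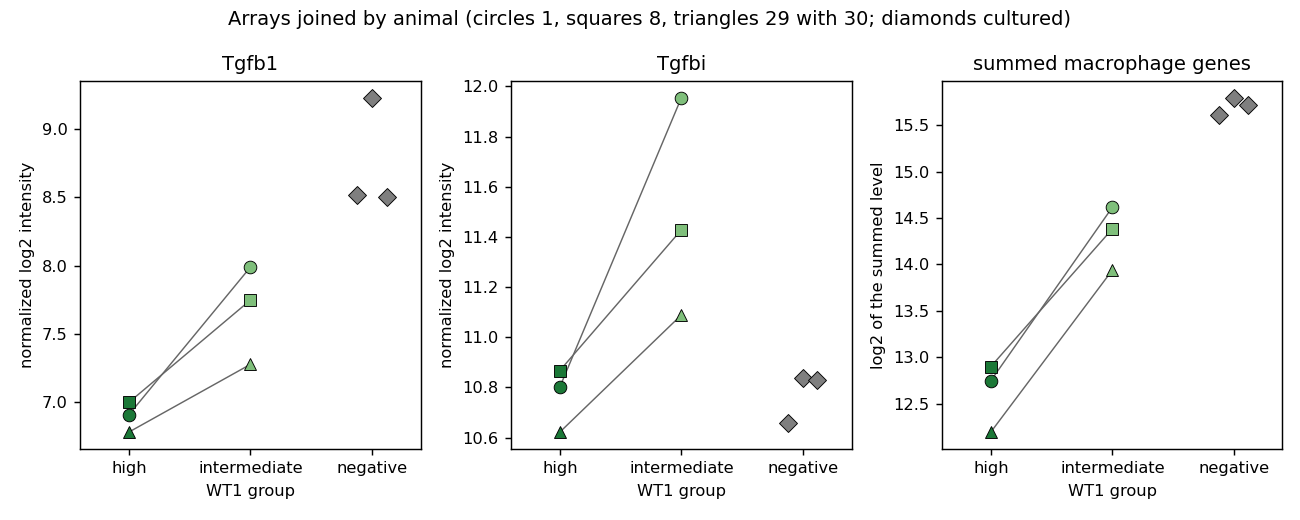
Tgfb1 and Tgfbi (normalized log2 intensity) and the summed level of 17 macrophage genes (log2 scale) on each array, by WT1 group, with lines joining the WT1-high and WT1-intermediate arrays of 1 animal and diamonds for the cultured arrays. All 3 measures are lower in WT1-high cells than in the WT1-intermediate group in every animal, and in WT1-negative cells Tgfbi (mean 10.78) is near its WT1-high mean of 10.76 while the other 2 measures are above both liver groups.

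Bambi, a decoy receptor without kinase activity whose loss sensitizes stellate cells to TGF-beta, had raw intensities of 76.6 to 93.2 and a lowest detection p of 0.163. Smad7, the inhibitory Smad that blocks the type I receptor, had a lowest detection p of 0.175. Neither was well above background on any of the 9 arrays, so no fold between groups is given for either gene.

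With all comparisons side by side, 4 of the 8 tested genes were higher (Tgfb2, Tgfb3, Tgfbr3, Ltbp1) and 1 lower (Tgfb1) in WT1-high cells than in the WT1-negative group. Among all 14659 genes tested by their brightest probe, 59.8% were called in that comparison, 27.7% higher and 32.1% lower. For WT1-intermediate against WT1-negative cells the members gave 5 higher (the same 4 and Tgfbi) and 1 lower, against 57.9% of all genes, 26.0% higher and 31.9% lower. Under median scaling, which moved the median difference of all genes by -0.33 in that comparison, the split of the members was 3 higher and 3 lower (Tgfb1, Tgfbr1 and Tgfbr2). Between the WT1-high group and the WT1-intermediate group 0 of 8 genes were called by limma and 2 (Tgfb1 and Tgfbi) had an unadjusted p under 0.05, against 3.84% of all genes called, 0.962% higher and 2.88% lower. With the animal as a block (29 and 30 as 1 animal), those 2 genes were called and the other 6 were not. Calls over all 20573 probes tested rose from 733 to 1515 with that block. The median difference over the 8 genes was 0.02, 0.74 and 0.90 in the 3 comparisons in the order WT1-high against WT1-intermediate, WT1-high against WT1-negative and WT1-intermediate against WT1-negative. Over all genes tested the medians were 0.04, -0.07 and -0.10. Both comparisons with WT1-negative cells use the same 3 cultured arrays.

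**Figure D4:**
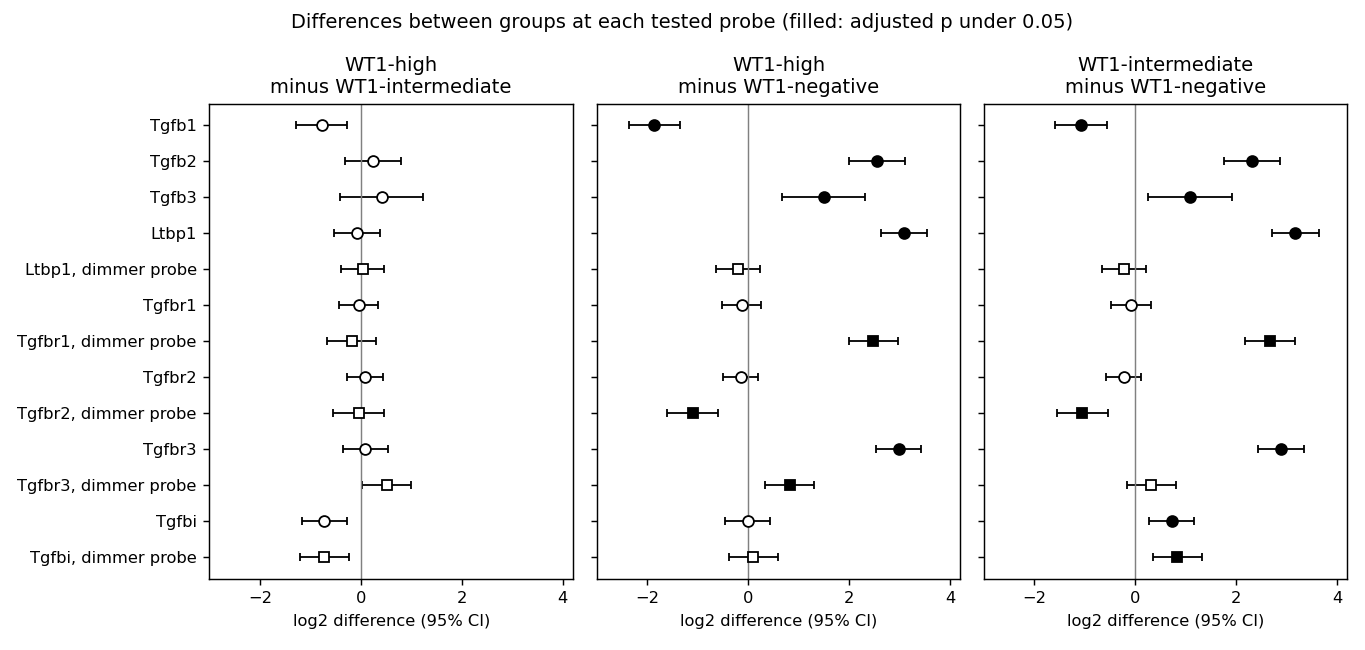
Log2 difference between groups with its 95% confidence interval for each of the 13 tested probes (circles the gene's brightest probe, squares the dimmer one), 1 panel per comparison. Filled symbols passed an adjusted p of 0.05, which no probe did between the WT1-high group and the WT1-intermediate group.

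For each ligand, the genes with the most alike profile over the 9 arrays were found by the root mean square distance between centred log2 values. For Tgfb1 they were Sla (0.14 log2 units), Cebpa (0.15) and Ogfrl1 (0.16). For Tgfb2 they were Zcchc3 (0.18), Abi3bp (0.19) and Pgcp (0.20). For Tgfb3 they were Col18a1 (0.28), 3110050N22Rik (0.29) and Rhbdl3 (0.29). The distances are a description over the same 9 arrays, 6 from liver and 3 from culture.

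The windows upstream of Tgfb1 and Tgfb2 are shown because these ligands moved in opposite directions between liver and culture. Each holds the 250 bases before the annotated start on the gene's strand, from RefSeq (GRCm38.p6), with GC boxes in capitals.
Tgfb1, chr7:25686752-25687001, plus strand: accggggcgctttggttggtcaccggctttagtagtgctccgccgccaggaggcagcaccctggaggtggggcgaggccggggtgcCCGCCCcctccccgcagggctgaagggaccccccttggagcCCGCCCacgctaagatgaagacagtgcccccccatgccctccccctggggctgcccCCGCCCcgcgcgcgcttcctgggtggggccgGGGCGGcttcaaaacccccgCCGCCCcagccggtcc
Tgfb2, chr1:186705990-186706239, minus strand: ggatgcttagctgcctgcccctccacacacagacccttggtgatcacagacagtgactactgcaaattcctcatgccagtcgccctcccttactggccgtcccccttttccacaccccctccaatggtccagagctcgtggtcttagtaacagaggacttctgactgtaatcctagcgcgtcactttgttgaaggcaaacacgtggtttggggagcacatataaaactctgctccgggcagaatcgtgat
The GC box (GGGCGG, either strand) had 5 matches in the Tgfb1 window and 0 in that of Tgfb2, and 32.7% of all 32851 windows of 250 bases held at least 1. Guanine and cytosine made up 75.2% of the Tgfb1 window and 53.6% of the Tgfb2 window. The core GCGGGGGCG, bound by EGR proteins and by WT1, was in neither of them. Among the 8 windows of the 6 members with an entry, it was in 1, upstream of 1 of the Tgfbr1 starts, and 2.57% of all windows held it. The letters TGAGTCA (AP-1, 4.46% of windows) and GTCTAGAC (Smad binding element, 0.167%) were in none of the 8. Tgfb3, Tgfbr3, Bambi and Smad7 had no entry.

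The rest of the pathway was followed with 50 further genes, of which 47 were on the array and 42 could be tested. Against WT1-negative cells, 13 were higher and 11 lower in WT1-high cells, and 13 were higher and 13 lower in WT1-intermediate cells. These are 24 and 26 of 42 genes called, close to the 59.8% and 57.9% called among all genes. Median scaling changed the latter split to 8 higher and 16 lower (all genes 1896 and 5961), and cyclic loess to 16 higher and 10 lower (all genes 4363 and 3860). The median difference over the 42 genes was 0.05 and 0.12. Between the WT1-high group and the WT1-intermediate group 1 was higher (Acta2) and 2 lower (Itgb5 and Eng), with a median of 0.10, beside 3.84% of all genes called. With the animal as a block (29 and 30 as 1 animal) 6 were called, beside 1515 of all 20573 probes tested. Under median scaling, which moved the median difference of all genes by 0.44, 9 were called, all higher. Among all 14659 genes that setting called 1871 higher and 90 lower.

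Among the 42 genes the largest difference from WT1-negative cells was that of Ltbp4. This gene, a latent TGF-beta binding protein of elastic fibres, read 11.07, 11.28 and 11.00 on WT1-high, 10.19, 11.29 and 10.42 on WT1-intermediate, and 5.84, 6.33 and 5.77 on WT1-negative arrays. That is 35.1-fold higher in WT1-high (5.13 ± 0.26 SE, limma adjusted p = 4.91e-08) and 25.1-fold higher in WT1-intermediate cells (4.65 ± 0.26 SE, limma adjusted p = 1.32e-07). Over 19 alternatives the Ltbp4 differences fell as low as 3.96 and 3.62, still called. Lrrc33, which tethers latent TGF-beta 1 on macrophages and microglia, read 7.87, 7.67 and 6.81 on WT1-high, 9.24, 9.05 and 7.84 on WT1-intermediate, and 10.57, 11.00 and 10.61 on WT1-negative arrays. It was 9.70-fold lower in WT1-high cells than in the WT1-negative group (-3.28 ± 0.36 SE, limma adjusted p = 1.49e-05). In WT1-intermediate cells it was 4.04-fold lower. The summed level of the macrophage genes above had the same order of groups, but not all single genes did. Set against the cultured arrays, the WT1-intermediate group had 7 of those 17 genes called lower and 4 called higher. Of the 5 latency and matrix anchoring genes tested, 3 were higher (Ltbp3, Ltbp4 and Fbn1) and 1 lower (Lrrc33) in each comparison with WT1-negative cells. That is 4 of 5 called in each, beside 59.8% (WT1-high) and 57.9% (WT1-intermediate) of all genes.

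Activators of latent TGF-beta gave 0 higher and 3 lower of 7 in WT1-high (Itgb6, Thbs1 and Furin) and 1 higher and 4 lower in WT1-intermediate against WT1-negative cells (Itgb5 higher, and those 3 and Itgb1 lower). These are 3 and 5 of 7 called, beside 59.8% and 57.9% of all genes. Itgb6, an epithelial integrin chain, was detected on no liver array and was at least 2.18-fold lower in WT1-high and at least 2.16-fold lower in WT1-intermediate cells (limma adjusted p = 0.00231 and 0.00234). Itgb5, a partner of the alpha v integrin chain, read 9.22, 9.47 and 9.41 on WT1-high, 10.45, 10.24 and 10.24 on WT1-intermediate, and 9.72, 9.56 and 9.67 on WT1-negative arrays. It was 1.92-fold lower in WT1-high cells than in the WT1-intermediate group (-0.94 ± 0.14 SE, limma adjusted p = 0.00519). Under median scaling the call was lost (-0.24).

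The co-receptor endoglin (Eng), abundant in endothelial cells, read 6.17, 6.20 and 6.26 on WT1-high, 7.02, 7.39 and 7.16 on WT1-intermediate, and 6.66, 6.97 and 6.68 on WT1-negative arrays. It was 1.97-fold lower in WT1-high cells than in the WT1-intermediate group (-0.98 ± 0.15 SE, limma adjusted p = 0.00601), and this call was lost under median scaling (-0.35). The 10 endothelial genes summed to 1047 to 1397 in WT1-high, 1667 to 2115 in WT1-intermediate cells and 957 to 1302 in the WT1-negative group, with Kdr detected on no liver array. Single genes did not all have the order of this sum. Of the 10, 0 were called higher and 2 lower for WT1-high against WT1-intermediate (median difference -0.60), beside 3.84% of all genes called. Set against the cultured arrays, the WT1-intermediate group had 2 of the 10 called higher and 6 lower (median difference -0.57), beside 57.9% of all genes called. The part of endothelial genes in the Eng difference was not tested. Acvrl1 and Cd109, the other receptors listed, were called in no comparison, nor were Smad2 and Smad3.

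Of 3 proteoglycans that bind TGF-beta, Fmod and Dcn were higher in both liver groups than in culture, and Bgn passed in WT1-high cells alone. Fmod (fibromodulin) was 12.9-fold higher in WT1-high (3.69 ± 0.30 SE, limma adjusted p = 1.6e-06) and 16.4-fold higher in WT1-intermediate cells (4.04 ± 0.30 SE, limma adjusted p = 1.05e-06). These folds are against WT1-negative values of 4.33, 4.43 and 4.89, of which the last alone was detected. Over 18 alternatives the Fmod differences fell as low as 2.00 and 2.30, still called. Dcn (decorin) read 13.23, 13.20 and 13.21 on WT1-high, 13.49, 13.31 and 13.79 on WT1-intermediate, and 10.86, 10.49 and 11.49 on WT1-negative arrays, 4.80-fold and 5.98-fold higher in the liver groups (limma adjusted p = 8.47e-06 and 3.93e-06). Bgn (biglycan) differed by 0.67 (limma adjusted p = 0.022) in WT1-high and by 0.34 (limma adjusted p = 0.21) in WT1-intermediate cells. Of 9 intracellular inhibitors and feedback genes tested, 4 were higher and 2 lower in WT1-high, and 4 higher and 3 lower in WT1-intermediate cells. These are 6 and 7 of 9 called, beside 59.8% and 57.9% of all genes.

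Of 13 known TGF-beta targets tested, 3 were higher and 4 lower in WT1-high, and 2 higher and 5 lower in WT1-intermediate against WT1-negative cells. In each comparison 7 of 13 were called, near the 59.8% and 57.9% of all genes. Col3a1, the type III collagen chain, was 23.4-fold higher in WT1-high (4.55 ± 0.37 SE, limma adjusted p = 1.64e-06) and 20.6-fold higher in WT1-intermediate cells (4.37 ± 0.37 SE, limma adjusted p = 2.75e-06), and Col1a2, a type I collagen chain, 6.47-fold and 5.25-fold higher (limma adjusted p = 2.88e-05 and 8.16e-05). Over the 19 alternatives the Col3a1 differences fell as low as 2.48 and 2.30, still called. Col1a1, the partner chain of type I collagen, was lower in both liver groups (log2 differences -1.40 and -1.26, limma adjusted p = 0.00678 and 0.012). Tagln, an actin-binding protein of smooth muscle and myofibroblasts, was 3.51-fold and 4.06-fold lower (limma adjusted p = 0.000111 and 5.61e-05), and 2 of 3 arrays of each liver group detected it. Acta2, the smooth muscle actin that marks myofibroblasts, read 11.50, 11.05 and 11.14 on WT1-high, 10.24, 10.53 and 10.65 on WT1-intermediate, and 13.04, 12.88 and 13.14 on WT1-negative arrays. It was 3.45-fold and 5.85-fold lower in the 2 liver groups than in WT1-negative cells (limma adjusted p = 5.6e-06 and 5.14e-07). It was 1.69-fold higher in WT1-high cells than in the WT1-intermediate group (0.76 ± 0.17 SE, limma adjusted p = 0.0358). That call was lost when any of 7 single arrays was left out (0.63 to 0.86), the exceptions being WT1-intermediate replicate 30 and WT1-negative replicate 11. It was also lost with no filter and with the 2 compared groups alone. The study reports Acta2 as not differentially expressed between WT1-high and WT1-intermediate cells.

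**Figure D5:**
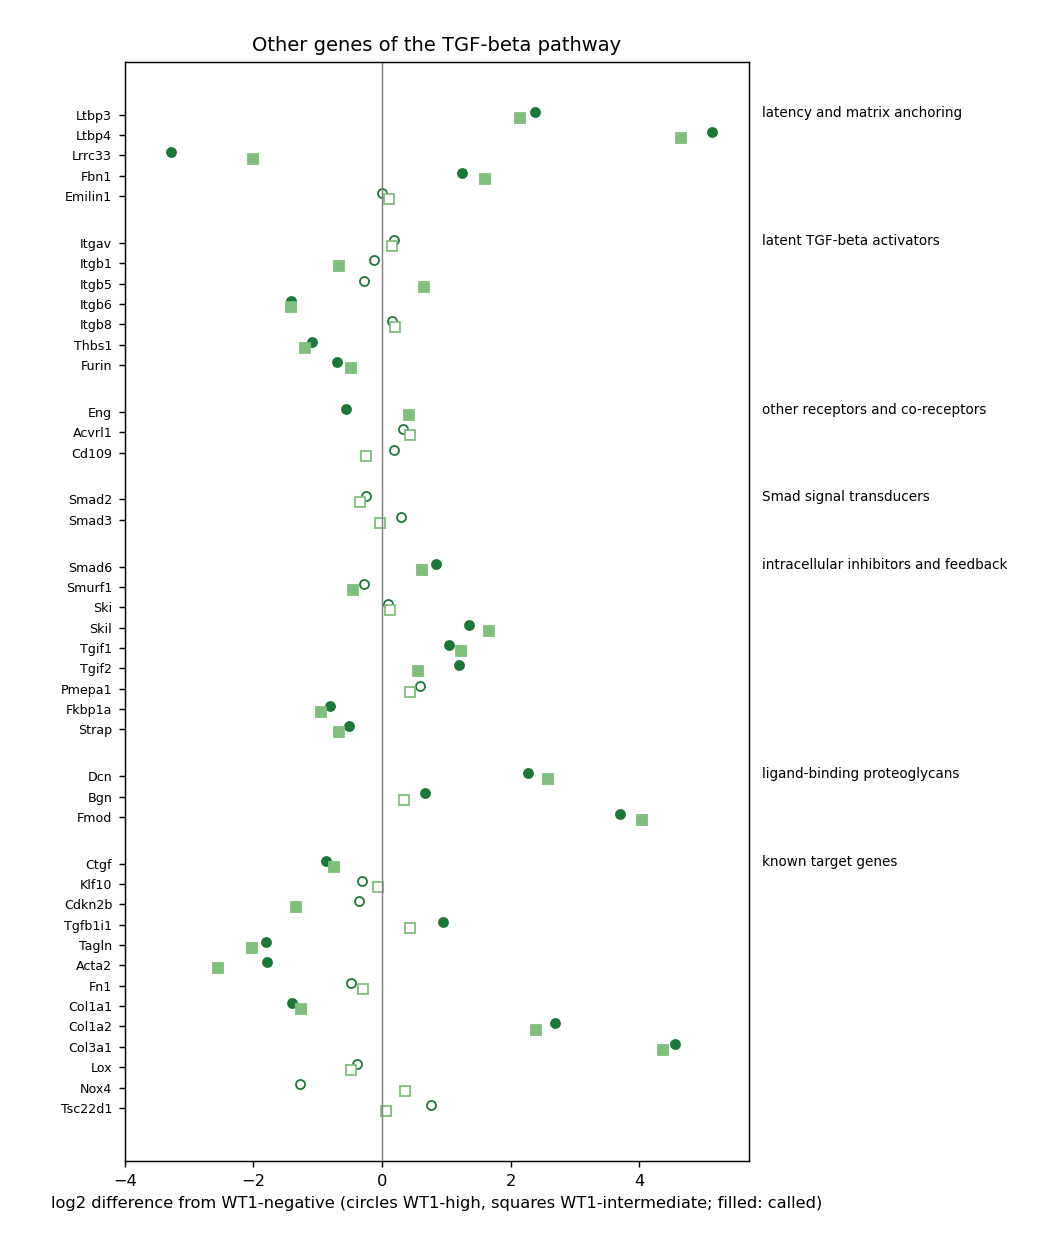
Log2 difference from WT1-negative cells for the 42 tested pathway genes, grouped by role (circles WT1-high, squares WT1-intermediate, filled where called). Ltbp4, Col3a1 and Fmod lie farthest to the right and Lrrc33 farthest to the left, and the target genes at the bottom fall on both sides of 0.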

How the data were processed

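RNA of 9 sorted samples was read on Illumina MouseWG-6 v2.0 arrays, 1 array per sample. The authors deposited 1 linear intensity per probe, neither background corrected nor normalized, with its detection p-value, the share of 936 negative controls brighter than the probe. The limma package (3.58.1, R 4.3.3) was used for neqc (background from negative controls, offset 16, quantile normalization, log2). Testing was limited to the 20573 of 45281 probes whose detection p was below 0.05 on 3 or more arrays. One linear model held the 3 groups (residual degrees of freedom 6, prior 5.19), and each pair was tested, two-sided, by limma's moderated statistic with Benjamini-Hochberg adjustment. The precision of every value is limited by the number of arrays.

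A gene was given by its kept probe with the highest mean. Named were all members, every other pathway gene called between WT1-high and WT1-intermediate, the 4 largest rises and 4 largest falls against WT1-negative, defining markers, and 3 nearest profiles per ligand. Ltbp3, Fbn1, Thbs1, Furin, Itgb1, Acvrl1, Cd109, Smad2, Smad3, Bgn and Col1a1 were named outside that rule, after their values were seen. The members and lists were chosen with earlier results of these data known. A fold written "at least" is against the background limit of the dimmer group. A liver column numbered 29 was read as WT1-intermediate replicate 30, the array left for its group, and its detection p was recomputed from its negative controls, a rule that moved 0 probes across 0.05 on the other 8 arrays. Pairing rests on the 3 animals the study states and the replicate numbers of the labels. Deviations from group means correlated at 0.35 (1 with 1), 0.34 (8 with 8) and 0.47 (29 with 30), against -0.39 to 0.03 for other combinations. In simulated data with 200 probes moved by 2 log2 units among 20573, 97.0% (WT1-high against WT1-intermediate), 96.0% (WT1-high against WT1-negative) and 97.0% (WT1-intermediate against WT1-negative) were recovered. The simulated noise was independent between arrays, without pairing by animal. Smaller shifts, such as those of Tgfb1 (-0.78) and Tgfbi (-0.73) between the liver groups, were not simulated, so recovery at that size is not known. Promoter windows came from RefSeq GRCm38.p6.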

Additional observations from a re-analysis of the deposited data

Results flagged for a closer look

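The distance from WT1-negative cells differed between the WT1-high group and the WT1-intermediate group, by the direct limma test between them, for Itgb5 (difference -0.94), for Eng (-0.98) and for Acta2 (0.76). The Acta2 call was lost in 9 of 21 alternatives, and those of Itgb5 and Eng in 1 each. Groups of 3 arrays were not examined for single arrays that stand apart.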

How the results depend on the processing

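Quantile normalization, the background correction, the filter, the choice of probe, the samples in the fit, array weights, replicate blocks and each array were changed in turn. Against WT1-negative cells the number of member genes called stayed at 5 to 7 of 8 for WT1-high (main 5) and 5 to 8 for WT1-intermediate (main 6), and Tgfb1, Tgfb2, Tgfbr3 and Ltbp1 kept their direction and call under all 19 alternatives of both comparisons. With the mean of all kept probes the Tgfbr1 difference from WT1-negative cells turned to 1.18 (WT1-high) and 1.29 (WT1-intermediate), since the dimmer probe then enters. The same alternative called Tgfbr2 (-0.62 and -0.64) and moved Ltbp1 to 1.45 and 1.47. Between the WT1-high group and the WT1-intermediate group the number of members called (main 0) was 1 under cyclic loess (Tgfbi), 2 with a random replicate block, 2 with a fixed replicate block by label number, and 2 with a fixed replicate block that takes 29 and 30 as 1 animal. Leaving out 1 array gave 0 to 2 members, 2 (Tgfb1 and Tgfbi) only without WT1-intermediate replicate 30. In that comparison Tgfb1 was -0.11 under median scaling (limma adjusted p = 0.851), where the median of all genes was 0.48. Pathway genes called (main 3) were 9 under median scaling and 6, 8 and 6 under the 3 replicate blocks in the order above, and 2 to 4 when 1 array was left out. All probes called (main 733) were 2631 under median scaling, 335 without a filter, 339 with the 2 groups alone, 1749, 1789 and 1515 under the 3 replicate blocks, and 325 to 865 when 1 array was left out, the low counts being 334 (WT1-high replicate 8 left out), 372 (replicate 29 of that group) and 325 (WT1-intermediate replicate 1). A filter for detection on all 9 arrays, which tests fewer probes, left 7967 calls (main 12254) for WT1-high and 7711 (main 11926) for WT1-intermediate against WT1-negative. The random replicate block changed no member call against WT1-negative cells. Apart from the filter, the cause of these changes was not tested. The column names used here give no slide, so a slide block was not run. Bambi, Smad7 and 9 other member probes were too close to background to be tested.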
